A study of Mus musculus with 6 samples.

Results

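The genes described here are 44 enzymes, regulators and transporters of amino acid metabolism, read in mouse fat. They were chosen by name: 21 genes of branched-chain amino acid breakdown, 14 enzymes of other amino acids and 9 amino acid transporters. Each of the 44 matched a single gene symbol on the array, out of 18193 genes measured, and 1 probe set was read per gene. All 44 were bright enough to be tested among 11201 genes.

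The tissue was epididymal white fat, the pad beside the epididymis, of male mice aged 10 weeks on a C57BL6;129Sv background. Pparg ldi/+ mice carried 1 copy of an allele of Pparg named ldi and 1 wild-type copy, and their controls were wild-type mice from matched litters. Each group had 3 mice and each mouse its own Affymetrix MOE430v2.0 array, and so few arrays limit the precision. Pparg encodes the nuclear receptor that drives fat cell differentiation, and the labels tie ldi to lipodystrophy, a lack or loss of fat. The sources used here do not say what ldi changes in the gene, nor whether the array's probes read its transcript. In a whole pad, fewer cells of a type and less RNA per cell cannot be told apart.

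Leucine, isoleucine and valine are the branched-chain amino acids. Their shared breakdown starts with a transaminase and the branched-chain ketoacid dehydrogenase complex, then splits into separate mitochondrial routes that end in acetyl-CoA, acetoacetate or, by way of propionyl-CoA, succinyl-CoA. White fat is a known site of this breakdown, which rises as adipocytes differentiate and feeds carbon into their lipids. Other transaminases move amino groups between alanine, aspartate and glutamate, serine is built from a glycolytic intermediate, and carriers of the SLC families bring amino acids across the membrane.

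Signals are scaled array intensities, so they compare arrays for a gene and not genes with each other. Differences are on the scale of log2(signal + 32), Pparg ldi/+ minus wild type, and fold changes come from them. "Rose" and "fell" mean an adjusted p under 0.05 by limma over all 11201 genes. Of those, 16.4% fell and 16.3% rose, and 47.6% had groups that did not overlap. The median difference over all genes tested was -0.0043. This even split depends on the scaling of the arrays: with the deposited values left unscaled, 1331 genes fell and 1792 rose, 57.4% of the calls being rises, and the median was 0.044. With 3 arrays against 3, an exact two-sided permutation test of a single gene cannot give a p below 0.1.

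The targeted gene and the cell type markers set the background for what follows. Pparg read 4378, 4440 and 4998 in wild type and 1732, 1709 and 1901 in Pparg ldi/+. Its difference was -1.35 (SE 0.084, adjusted p = 1.04e-05). Adipocyte markers fell in 9 of 10 tested and rose in 0, and their summed signal was 174454 to 194251 in wild type and 81573 to 90132 in Pparg ldi/+. All 15 macrophage markers rose, with sums of 31993 to 40969 and 93970 to 99230. All 3 lymphocyte markers tested of 8 read also rose. Endothelial markers fell in 8 of 10 and mesothelial markers in 5 of 9, while stromal markers fell in 2 and rose in 2 of 8. Epididymal markers summed to 19049 and 26361 in Pparg ldi/+ arrays 1 and 2, against 711 in array 3 and 560 to 1296 in wild type. For this reason differences in the main groups below are also given with Pparg ldi/+ arrays 1 and 2 left out, written as array 3 alone. The part of these cell types in the differences of the amino acid genes was not tested.

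**Figure D1:**
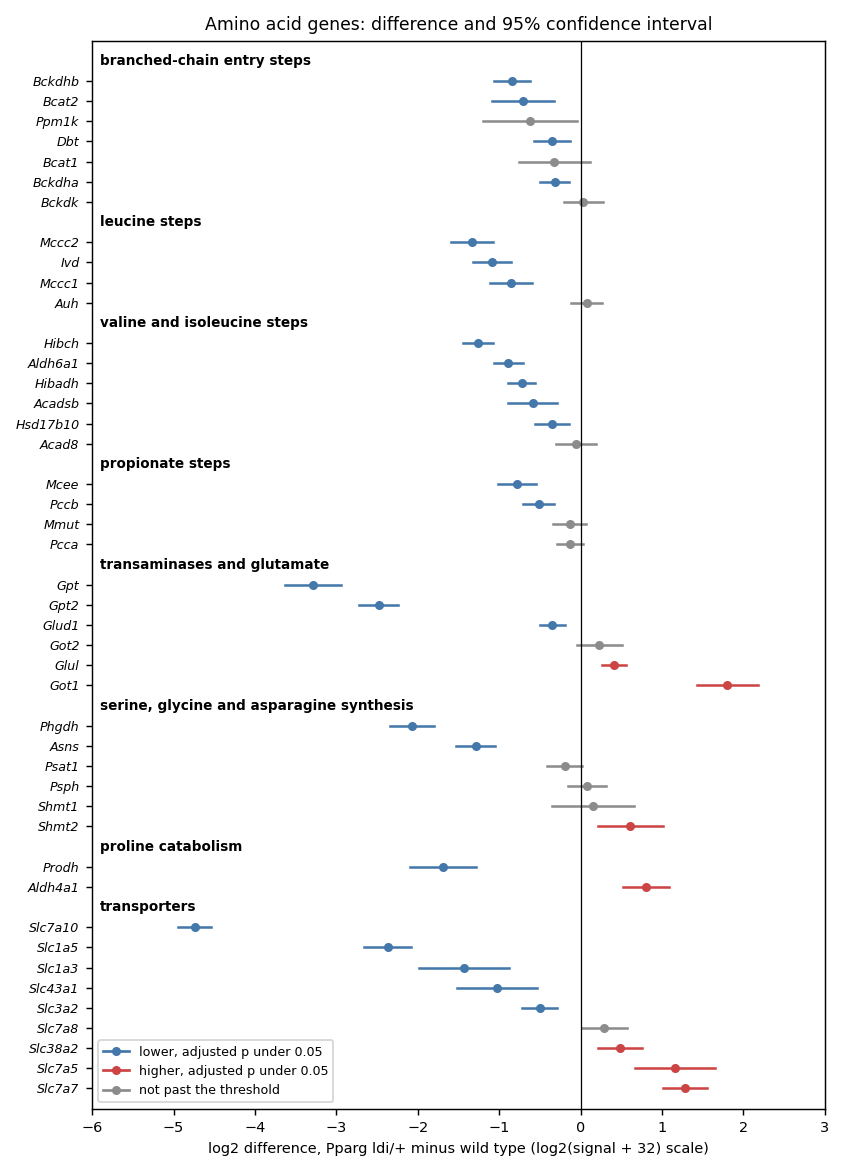
Log2 difference between Pparg ldi/+ and wild type (x axis, log2(signal + 32) scale) for all 44 genes, grouped by role, with points for the estimate from 3 against 3 arrays and lines for the limma 95% confidence interval. The 25 genes that fell are blue, the 7 that rose red and the 12 that did not pass grey. Slc7a10 lies farthest from 0, at -4.74.

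Of the 44 genes 32 changed, where 32.7% of all genes tested did so: 25 fell (56.8%) and 7 rose (15.9%), and 12 did not pass. Changes of at least 1 on the log2 scale were found for 12 of the genes that fell and 3 of those that rose, where 3.63% and 4.72% of all genes tested reached that size. The median over the 44 was -0.42. The groups did not overlap in 35 of them, where 47.6% of all genes tested had no overlap. All 32 called genes were among those without overlap. Their sign with array 3 alone was therefore fixed in advance and is no further evidence.

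Upstream sequence is shown for 3 of the genes: the transporter with the largest difference, and 2 enzymes that share a motif and moved in opposite directions. RefSeq promoters of build GRCm38.p6 were at hand for 39 of the 44 genes, with 49 annotated starts, and the 250 bases before each start were searched on both strands. The consensus PPAR response element, a direct repeat of AGGTCA with 1 base of any kind between its copies, was in 0 of the 49 windows and in 0.0335% of all 32851 windows of that length. A copy of AGGTCA, which every such repeat contains, was in 9 of the 49 (18.4%) and in 14% of all windows. The amino acid response element TGATGNAA, where N is any base, which C/EBP and ATF proteins bind, was in 4 of the 49 (8.16%) and in 3.45% of all windows. These 4 belonged to 3 genes, namely Asns, Got1 and Slc7a7, the last with it before 2 of its 5 listed starts. A match describes letters in a window and is no evidence of binding. The full repeat is so rare in all windows that its absence here says nothing about PPAR binding to these genes. In the sequences, which run 5′ to 3′ towards the start, capitals mark a match to AGGTCA or TGATGNAA on either strand. The Slc7a10 window (chr7:35186135-35186384, plus strand) has neither. That of Asns (chr6:7693210-7693459, minus strand) has TGATGNAA 23 bases before the start, and that of Got1 (chr19:43524606-43524855, minus strand) has AGGTCA 244 bases and TGATGNAA, on the opposite strand, 102 bases before the start.
Slc7a10: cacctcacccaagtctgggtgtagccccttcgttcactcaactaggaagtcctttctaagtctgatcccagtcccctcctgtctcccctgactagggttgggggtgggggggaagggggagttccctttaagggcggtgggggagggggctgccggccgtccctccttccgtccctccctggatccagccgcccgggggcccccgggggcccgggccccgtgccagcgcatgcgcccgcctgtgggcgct
Asns: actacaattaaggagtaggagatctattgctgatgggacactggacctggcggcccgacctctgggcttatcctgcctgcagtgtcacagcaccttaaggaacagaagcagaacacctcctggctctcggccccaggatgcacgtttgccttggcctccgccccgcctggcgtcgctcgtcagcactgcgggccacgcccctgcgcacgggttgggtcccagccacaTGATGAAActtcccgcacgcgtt
Got1: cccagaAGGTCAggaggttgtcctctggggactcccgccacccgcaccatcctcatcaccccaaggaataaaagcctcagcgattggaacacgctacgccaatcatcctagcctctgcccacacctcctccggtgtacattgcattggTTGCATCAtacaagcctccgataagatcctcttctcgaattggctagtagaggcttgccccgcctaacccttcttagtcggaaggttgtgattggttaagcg

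Genes of branched-chain breakdown fell in Pparg ldi/+ fat at steps from the transaminase to the propionate route. Of its 21 genes, 14 fell (66.7%) and 0 rose, against the 16.4% and 16.3% of all genes tested, and the median was -0.59. The groups did not overlap in 16, each with Pparg ldi/+ below wild type, a direction and gap found in 24% of all genes tested. The 14 falls were between 1.25-fold and 2.52-fold. With array 3 alone, these 14 genes differed by -0.32 to -1.49. With unscaled values 11 of the 21 fell and 0 rose, where 1331 of 11202 genes tested fell and 1792 rose. The adipocyte marker sums given above were also lower in Pparg ldi/+. So were the endothelial sums, at 22153 to 24555 in wild type and 10631 to 13378 in Pparg ldi/+. Mesothelial sums were 10682 to 13183 in wild type and 6602 to 7200 in Pparg ldi/+, while macrophage, lymphocyte and stromal sums were higher. The part of these cell types in the branched-chain falls was not tested.

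At the entry, Bcat2, the mitochondrial branched-chain transaminase, read 2911, 2475 and 3331 in wild type and 1555, 2293 and 1530 in Pparg ldi/+. The groups did not overlap, though array 2 of Pparg ldi/+ came close to the lowest wild-type array. It fell 1.63-fold (log2 -0.70, SE 0.168, adjusted p = 0.0121), and without Pparg ldi/+ array 1 the call ended at -0.61. Bcat1, the cytosolic transaminase, was dim at 191 to 272 in wild type and 149 to 190.0 in Pparg ldi/+, and its difference of -0.32 did not pass (95% confidence interval -0.76 to 0.11).

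The dehydrogenase complex fell in each of its measured subunits. Bckdhb, the beta subunit of its decarboxylase, read 4315, 3677 and 4602 in wild type and 2252, 2468 and 2260 in Pparg ldi/+. All Pparg ldi/+ arrays lay well below all wild-type arrays, and the gene fell 1.79-fold (log2 -0.84, SE 0.0963, adjusted p = 0.000277). Bckdha, the alpha subunit, fell by less, with a difference of -0.32 (adjusted p = 0.0134), and so did Dbt, the transacylase core, at -0.35 (adjusted p = 0.0257). The call of Bckdha ended with unscaled values (-0.26) and without Pparg ldi/+ array 1 (-0.29). That of Dbt ended with unscaled values (-0.29), with the array number as a block (-0.35), and without wild-type array 1 (-0.32) or 3 (-0.29) or Pparg ldi/+ array 2 (-0.36) or 3 (-0.30). With array 3 alone they were at -0.32 and -0.45 and did not pass.

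The regulators of the complex did not pass. Bckdk, the kinase that switches it off, read 1029 to 1218 in wild type and 1056 to 1240 in Pparg ldi/+, so the groups overlapped throughout. Its difference was 0.04 (95% confidence interval -0.20 to 0.27), with the opposite sign, at -0.06, in array 3 alone. Ppm1k, the phosphatase that switches the complex on, spread widely in wild type, at 615, 353 and 688 against 440, 311 and 270 in Pparg ldi/+. Its difference of -0.62 did not pass (adjusted p = 0.0939), while it passed without wild-type array 2, the lowest of that group (-0.90), and with the mean of its probe sets (-0.59).

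**Figure D2:**
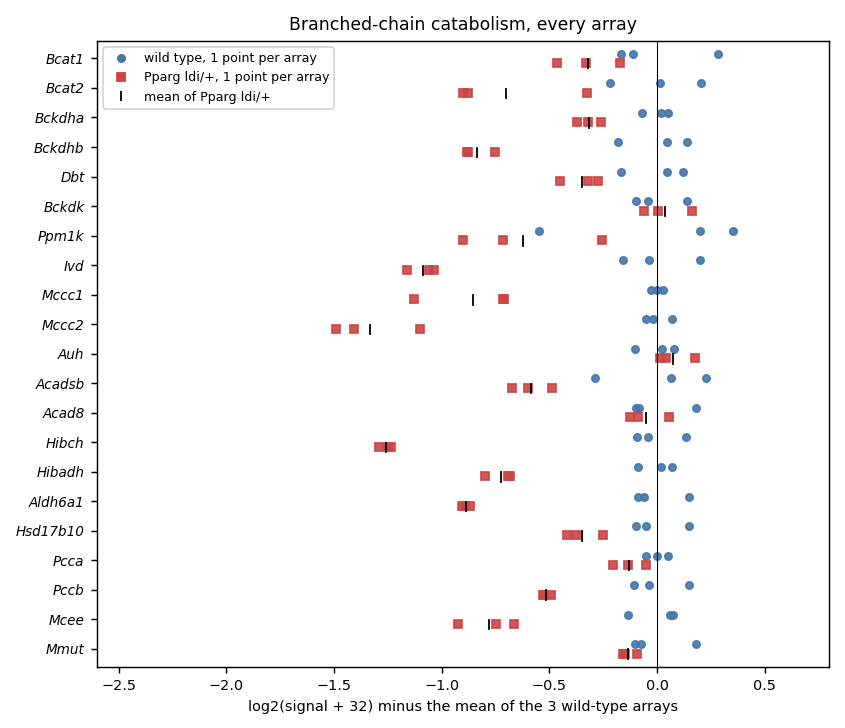
Signal of each of the 21 branched-chain genes in every array, as log2(signal + 32) minus the mean of the 3 wild-type arrays (x axis), with circles for wild type, squares for Pparg ldi/+ and a tick for the Pparg ldi/+ mean. The Pparg ldi/+ squares of Ivd, Mccc2 and Hibch lie beyond -1, while those of Bckdk, Auh and Acad8 overlap the wild-type circles.

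In the leucine route 3 of 4 genes fell (75%), against 16.4% of all genes tested, with a median of -0.97 over the 4. Mccc2, the beta subunit of methylcrotonyl-CoA carboxylase, read 2234, 2287 and 2427 in wild type and 853, 1061 and 804 in Pparg ldi/+. Every Pparg ldi/+ array was under every wild-type array by a wide margin, and the fall was 2.52-fold (log2 -1.33, SE 0.112, adjusted p = 4.99e-05). Its other 2 probe sets above the brightness limit differed by -1.18 and -1.38. Mccc1, the alpha subunit of the same enzyme, fell 1.81-fold (log2 -0.85, adjusted p = 0.000652), with array 3 the lowest at 2178 beside 2919 and 2913. Ivd, isovaleryl-CoA dehydrogenase, read 2840, 2614 and 3353 in wild type and 1288, 1384 and 1410 in Pparg ldi/+. It fell 2.12-fold (log2 -1.08, SE 0.103, adjusted p = 9.82e-05), although its dimmer probe set differed by only -0.39. Auh, a hydratase of the same route, did not follow: it read 1932 to 2195 in wild type and 2099 to 2347 in Pparg ldi/+, a difference of 0.08 (95% confidence interval -0.12 to 0.27). Its other probe sets above the brightness limit disagreed, at -0.95 and 0.0044.

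In the valine and isoleucine routes 5 of 6 genes fell (83.3%), against 16.4% of all genes tested. Hibch, the hydrolase that frees hydroxyisobutyrate in valine breakdown, read 4212, 3595 and 3725 in wild type and 1608, 1548 and 1596 in Pparg ldi/+. The Pparg ldi/+ arrays were nearly identical and far below wild type, a fall of 2.39-fold (log2 -1.26, SE 0.0826, adjusted p = 1.37e-05). Hibadh, which oxidises that product, fell 1.65-fold (log2 -0.73, adjusted p = 0.00012). Aldh6a1, methylmalonate semialdehyde dehydrogenase, read 8128, 7973 and 9382 in wild type and 4547, 4629 and 4512 in Pparg ldi/+, again without overlap, and fell 1.85-fold (log2 -0.89, SE 0.0781, adjusted p = 6.43e-05). Acadsb, the dehydrogenase of the isoleucine route, fell 1.5-fold (log2 -0.59, adjusted p = 0.00929). Its only probe set is of a type that can cross-hybridise, and it did not pass with array 3 alone (-0.67). Hsd17b10, of isoleucine breakdown, fell 1.27-fold (log2 -0.35, adjusted p = 0.0173). Its call ended with unscaled values (-0.29), without Pparg ldi/+ array 2 (-0.31) or 3 (-0.33) and with array 3 alone (-0.38). Acad8, the valine-specific dehydrogenase, read 900.3 to 1101 in wild type and 882 to 1006 in Pparg ldi/+, a difference of -0.05 that did not pass and that was 0.05 with the mean of its probe sets and 0.04 without wild-type array 3.

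In the propionate steps, which valine and isoleucine share, 2 of 4 genes fell (50%), against 16.4% of all genes tested. Mcee, methylmalonyl-CoA epimerase, read 1891, 1877 and 1636 in wild type and 1057, 932 and 1122 in Pparg ldi/+, with no overlap, and fell 1.72-fold (log2 -0.78, SE 0.102, adjusted p = 0.000568). Pccb, the beta subunit of propionyl-CoA carboxylase, read 3636, 3824 and 4349 in wild type and 2717, 2711 and 2777 in Pparg ldi/+. The Pparg ldi/+ arrays lay close together below wild type, and the fall was 1.43-fold (log2 -0.52, SE 0.083, adjusted p = 0.0017), which did not pass with array 3 alone (-0.49). Pcca, the alpha subunit of that enzyme, was at -0.13 (95% confidence interval -0.29 to 0.03) and Mmut, the mutase that makes succinyl-CoA, at -0.13 (95% confidence interval -0.34 to 0.07), and neither passed. Another probe set of Mmut above the brightness limit differed by -0.35.

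Genes next to these in the pathway went both ways. Of 18 other genes of branched-chain breakdown and its end products, 16 were read and tested, with a median of -0.28. Of these, 6 fell (37.5%) and 4 rose (25%), against 16.4% and 16.3% of all genes tested. The groups did not overlap in 15, 11 of them lower in Pparg ldi/+, against 47.6% and 24% of all genes tested. The falls included Oxct1 at -0.65 and Dld, a further subunit of the dehydrogenase complex, at -0.27. The 2 genes with the smallest p were both rises. Mmadhc, a cobalamin handling gene, rose 1.76-fold, from 2434 to 2783 in wild type to 4507 to 4693 in Pparg ldi/+ (adjusted p = 8.09e-05). Hadha, a subunit of the mitochondrial trifunctional protein shared with fatty acid oxidation, rose 1.6-fold (adjusted p = 0.0002). Some of these enzymes serve other pathways too.

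The other enzymes split by reaction. Of 14, 6 fell (42.9%) and 4 rose (28.6%), against 16.4% and 16.3% of all genes tested, with a median of -0.06. With array 3 alone, the 6 that fell were at -0.32 to -3.51 and the 4 that rose at 0.44 to 1.89.

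Both alanine transaminases fell steeply. Gpt, the cytosolic enzyme, read 5004, 6686 and 5302 in wild type and 533, 669 and 462 in Pparg ldi/+. No wild-type array came near a Pparg ldi/+ array, and the fall was 9.73-fold (log2 -3.28, SE 0.15, adjusted p = 2.73e-06). The mean with its other, dim probe set gave -1.84. Gpt2, the mitochondrial enzyme, read 4164, 4360 and 4700 in wild type and 669, 762 and 867 in Pparg ldi/+, a fall of 5.59-fold (log2 -2.48, SE 0.106, adjusted p = 2.19e-06). Its other 3 probe sets differed by -2.12 to -2.26. Both genes passed with array 3 alone, at -3.51 and -2.30.

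The aspartate transaminases did not fall. Got1, the cytosolic enzyme, read 225, 194 and 311 in wild type and 918, 856 and 974 in Pparg ldi/+. The Pparg ldi/+ arrays were all above wild type, array 3 the highest, and the gene rose 3.49-fold (log2 1.80, SE 0.162, adjusted p = 7.28e-05). With array 3 alone it was at 1.89 and passed. Got2, the mitochondrial enzyme, read 1881 to 2660 in wild type and 2476 to 2644 in Pparg ldi/+, so the groups overlapped. Its difference of 0.23 did not pass (adjusted p = 0.191), but it did without wild-type array 3 (0.36). Asns and Got1 were chosen for display above because they share the letters TGATGNAA and moved in opposite directions, so that contrast is no finding. Slc7a7, which also has these letters, rose (log2 1.29). Whether the letters go with the changes was not tested.

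The genes of glutamate and glutamine changed by less. Glul, glutamine synthetase, which joins ammonia to glutamate, read 10290, 9699 and 9912 in wild type and 13665, 12557 and 13509 in Pparg ldi/+, all above wild type. It rose 1.33-fold (log2 0.41, SE 0.0639, adjusted p = 0.00147), and its second probe set differed by 0.49. Glud1, glutamate dehydrogenase, which releases ammonia from glutamate, fell 1.27-fold (log2 -0.34, adjusted p = 0.00447) from 4968 to 5413 down to 4021 to 4177, and did not pass with array 3 alone (-0.32) or with unscaled values (-0.29).

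Serine synthesis was lower at its first enzyme, and the later ones did not pass. Phgdh, the dehydrogenase that commits glycolytic carbon to serine, read 10389, 10022 and 8257 in wild type and 1935, 2499 and 2335 in Pparg ldi/+. The groups were far apart, a fall of 4.19-fold (log2 -2.07, SE 0.119, adjusted p = 7.57e-06). All 4 of its probe sets are of the cross-hybridising type, and the other 3 differed by -1.75 to -2.33. Psat1, the transaminase that follows, was at -0.19 (95% confidence interval -0.41 to 0.02) and passed only without wild-type array 3 (-0.28), while Psph, the phosphatase that ends the route, was at 0.08 (95% confidence interval -0.15 to 0.31), with -0.0065 in array 3 alone.

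Asns, asparagine synthetase, read 3106, 3273 and 3303 in wild type and 1345, 1470 and 1114 in Pparg ldi/+. It fell 2.44-fold without overlap (log2 -1.29, SE 0.106, adjusted p = 4.61e-05), and its second probe set, which can cross-hybridise, differed by -1.16. The serine to glycine enzymes were dim. Shmt2, the mitochondrial one, read 168, 258 and 224 in wild type and 323, 325 and 385 in Pparg ldi/+ and rose 1.53-fold (log2 0.61, SE 0.176, adjusted p = 0.0278). That call was among the weakest: it ended without a filter on dim genes (0.61), with the mean of the probe sets (0.33), without wild-type array 1 (0.46) and without Pparg ldi/+ array 1 (0.65), 2 (0.65) or 3 (0.53), and with array 3 alone (0.76). Shmt1, the cytosolic one, was at 0.16 (95% confidence interval -0.35 to 0.66) and did not pass.

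The enzymes of proline breakdown moved apart. Prodh, which starts it, read 1098, 855 and 1388 in wild type and 333, 347 and 273 in Pparg ldi/+, and fell 3.23-fold with no overlap (log2 -1.69, SE 0.176, adjusted p = 0.000162). Aldh4a1, which finishes it by making glutamate, read 614, 799 and 603 in wild type and 1157, 1138 and 1262 in Pparg ldi/+. All Pparg ldi/+ arrays were higher, a rise of 1.74-fold (log2 0.80, SE 0.123, adjusted p = 0.00134). Both passed with array 3 alone, at -1.88 and 0.89.

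**Figure D3:**
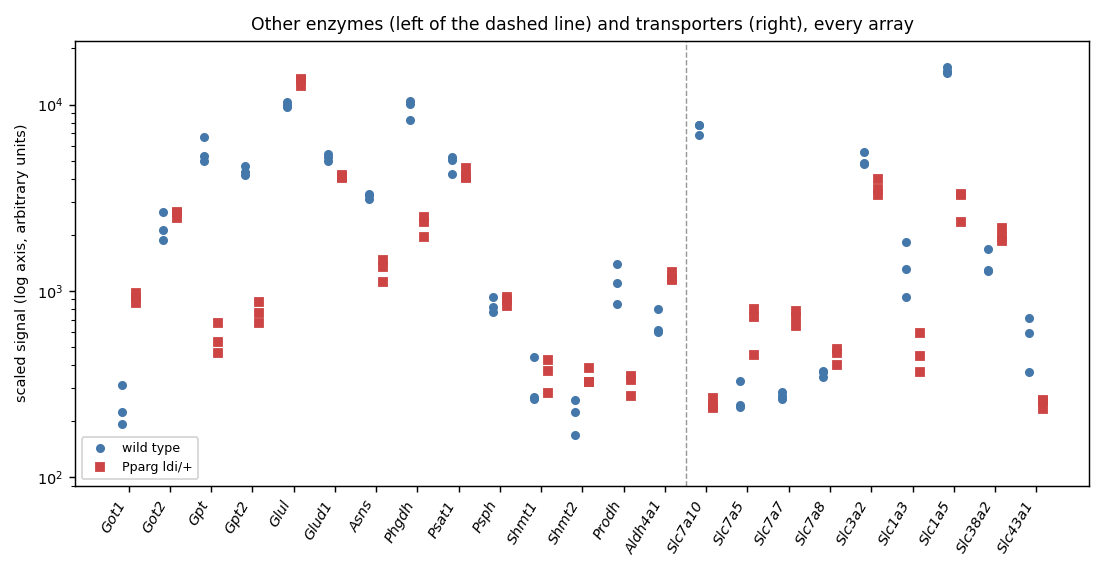
Scaled signal (y axis, log scale, arbitrary units) of the 14 other enzymes and the 9 transporters in every array, with circles for the 3 wild-type and squares for the 3 Pparg ldi/+ arrays. Heights compare arrays within a gene only. Slc7a10 drops from between 6871 and 7753 to between 236 and 266, while Got1, Slc7a5 and Slc7a7 lie higher in all 3 Pparg ldi/+ arrays.

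Transporters held the largest fall of the 44 genes and 2 of the 3 rises of at least 1 on the log2 scale. Of 9, 5 fell (55.6%) and 3 rose (33.3%), against 16.4% and 16.3% of all genes tested. The groups did not overlap in any of the 9, where 47.6% of all genes tested had no overlap. With array 3 alone, the 5 that fell were at -0.52 to -4.80 and the 3 that rose at 0.61 to 1.42.

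Slc7a10, a carrier of small neutral amino acids that marks white adipocytes, read 7723, 7753 and 6871 in wild type and 241, 266 and 236 in Pparg ldi/+. The Pparg ldi/+ arrays were tightly grouped, far below every wild-type array. The fall was 26.7-fold (log2 -4.74, 95% confidence interval -4.94 to -4.53, SE 0.0899, adjusted p = 2.28e-08), and in array 3 alone it was -4.80. Slc1a5, which brings in glutamine and other neutral amino acids, read 15884, 14807 and 15215 in wild type and 3257, 2339 and 3311 in Pparg ldi/+. It fell 5.17-fold (log2 -2.37, SE 0.127, adjusted p = 5.16e-06), and its dimmer probe set differed by -2.05.

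Slc1a3, a glutamate and aspartate transporter, varied in wild type, at 1303, 930.2 and 1826, and read 448, 596 and 368 in Pparg ldi/+. The groups stayed apart, and it fell 2.71-fold (log2 -1.44, SE 0.243, adjusted p = 0.0022). Its other 4 probe sets above the brightness limit differed by -0.82 to -1.71. Slc43a1, a carrier of large neutral amino acids including the branched-chain ones, read 593, 368 and 717 in wild type and 232, 259.9 and 256 in Pparg ldi/+. It fell 2.04-fold (log2 -1.03, SE 0.217, adjusted p = 0.00702), and did not pass with array 3 alone (-0.99).

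Slc3a2 encodes the heavy chain that carries several SLC7 light chains to the membrane, those of Slc7a5, Slc7a7, Slc7a8 and Slc7a10 among them. It fell 1.41-fold (log2 -0.50, SE 0.0942, adjusted p = 0.00385), from 4812 to 5562 in wild type to 3280 to 3973 in Pparg ldi/+. Its light chains moved apart. Slc7a5, the carrier of leucine and other large neutral amino acids, read 329.8, 239 and 245 in wild type and 797, 722 and 451 in Pparg ldi/+. It rose 2.23-fold (log2 1.16, SE 0.216, adjusted p = 0.00362), with array 3 the lowest of the Pparg ldi/+ arrays, and array 3 alone gave 0.68, which did not pass. Slc7a7, an exchanger of cationic for neutral amino acids, read 262, 288 and 271 in wild type and 644, 722 and 782 in Pparg ldi/+, and rose 2.44-fold (log2 1.29, SE 0.119, adjusted p = 8.28e-05). It passed with array 3 alone (1.42), the array with the highest macrophage marker sum, 99230 beside 93970 and 94357, and the part of macrophages in this rise was not tested. Slc7a8, another light chain for neutral amino acids, was at 0.29 (95% confidence interval 0.01 to 0.57) and did not pass (adjusted p = 0.103).

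Slc38a2, a sodium-coupled carrier of small neutral amino acids, read 1275, 1679 and 1295 in wild type and 1845, 1941 and 2164 in Pparg ldi/+. It rose 1.4-fold (log2 0.48, SE 0.121, adjusted p = 0.0149). Its call ended without wild-type array 1 (0.42), without Pparg ldi/+ array 3 (0.42) and with array 3 alone (0.61).

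**Figure D4:**
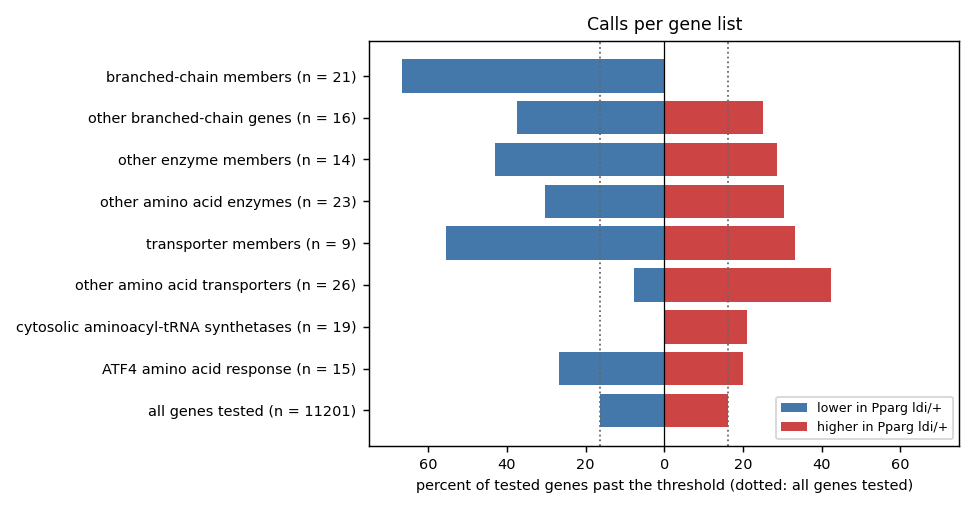
Percent of tested genes that fell (blue, to the left) or rose (red, to the right) in Pparg ldi/+ fat for each gene list, with the number tested in brackets and dotted lines at the shares of all genes tested, 16.4% and 16.3%. The 21 branched-chain genes reach 66.7% on the left and 0 on the right, and the 26 other transporters reach 42.3% on the right.

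Further lists of amino acid genes show how far these changes extended. Of 47 other enzymes, 37 were read and 23 tested, with a median of -0.05. Of these, 7 were lower and 7 higher (30.4% each), against 16.4% and 16.3% of all genes tested. Cdo1, which oxidises cysteine, fell 3.32-fold (adjusted p = 1.95e-06) and Gatm, of creatine synthesis, rose 3.14-fold (adjusted p = 2.56e-05). Of 32 other transporters, 26 were tested, 2 fell (7.69%) and 11 rose (42.3%), against the same shares of all genes, with a median of 0.18. Slc15a3, a lysosomal carrier of peptides and histidine, rose 5.81-fold (adjusted p = 1e-05), and Slc6a13, a carrier of GABA and taurine, fell 5.1-fold (adjusted p = 8.57e-05).

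Genes of the amino acid response, through which the factor ATF4 acts on amino acid shortage and to which Asns also belongs, had no common direction. Of 15 tested, 4 fell (26.7%) and 3 rose (20%), against 16.4% and 16.3% of all genes tested, with a median of -0.03. Atf3 rose 4.02-fold (adjusted p = 6.29e-06), and Eif4ebp1, a brake on translation, fell 2.99-fold (adjusted p = 2.54e-05). Atf4 itself, named after its value was seen, rose 1.36-fold (adjusted p = 0.00486). Of 19 cytosolic aminoacyl-tRNA synthetases, which load amino acids onto tRNA, 0 fell and 4 rose (21.1%, near the 16.3% of all genes tested), with a median of 0.20. Nars1 and Aars1 rose 1.54-fold (adjusted p = 0.000591) and 1.52-fold (adjusted p = 0.000869).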

How the data were processed

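The 6 arrays hold 1 mouse each. The authors deposited linear signal intensities, 1 per probe set. They come from MAS5, per the submitters' processing notes, which name it for 2 of the 6 samples and give no version. The log2 values were computed here from these deposited intensities. Each array was scaled to a 2% trimmed mean of 500 over its 45101 probe sets (factors 2.12 to 2.49), and log2(signal + 32) was taken. Symbols came from the platform annotation, updated by gene number to GRCm38.p6. Each gene was read in its brightest probe set, leaving out cross-hybridising ones (suffix x_at) where another existed, and tested if its mean reached 7.46 on the log2 scale, the median of all probe sets. The fit across genes used lmFit and eBayes of limma 3.58.1 (R 4.3.3), with an intensity trend and no covariates, and Benjamini-Hochberg adjustment over 11201 genes. The fit was also run on simulated data with independent noise and few changed genes. These arrays differ from that setting, so the run does not vouch for the calls here. P-values set the group difference against the spread between these mice, with the variance of each gene moderated across genes.

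The members and all lists were chosen with earlier results of these data known, so counts are descriptions, and no list was tested as a set. Values were given in full for the 2 members of each role with the smallest p, those with a log2 difference of 1 or more, and called members opposed to their group. Alternatives changed the offset, scaling, filter, variance model, probe set choice and threshold, blocked by replicate number, left out each array, and used Pparg ldi/+ array 3 alone, where the lone array is assumed to vary like wild type.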

Additional observations from a re-analysis of the deposited data

How the results depend on the processing

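Of the 32 called genes, 21 passed in each alternative at the 0.05 threshold that tested them. None of the 32 had overlapping groups, so their signs were fixed in advance in the fit with Pparg ldi/+ array 3 alone. That fit, with 1 array against 3, called 9 branched-chain falls in place of 14, 1 transporter rise in place of 3, and 878 falls and 733 rises among all genes. Unscaled values gave 11 branched-chain falls, 5 falls of other enzymes in place of 6, and 1331 falls against 1792 rises among all genes in place of 1837 and 1831. An adjusted p under 0.01 left 10 branched-chain falls, 3 rises of other enzymes in place of 4, 2 transporter rises, and 1153 falls and 1085 rises among all genes. Bckdk and Psph, which never passed, turned to -0.061 and -0.0065 with array 3 alone, and Acad8 to 0.051 with the mean of probe sets. Leaving out 1 array at a time gave -0.029 to 0.11 for Bckdk and -0.11 to 0.037 for Acad8. It gave 12 to 15 branched-chain falls, 6 to 7 falls and 3 to 5 rises of other enzymes, and 5 falls and 2 to 3 rises of transporters. Among all genes it called 1442 to 1679 falls and 1294 to 1704 rises. Blocking by the number in the titles gave 13 branched-chain falls, Dbt being lost, left 6 falls and 4 rises of other enzymes and 5 falls and 3 rises of transporters, and called 1598 falls and 1568 rises among all genes. Same-numbered arrays did not deviate together (r of -0.13 to -0.09 over 3 pairs), so the numbers were not taken as pairs. With cross-hybridising sets allowed, Slc1a3 and Shmt2 are read in another probe set, and both calls held. Bcat1, Shmt2, Shmt1, Slc43a1 and Slc7a8 had the dimmest means of the 44 genes. The offset compresses the folds of genes that are dim in either group. With a floor of 32 in place of the offset, Bcat1 was at -0.38 beside -0.32. Slc7a10 was at -4.91 beside -4.74 and Got1 at 1.94 beside 1.80.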

Other observations

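The next 4 genes, outside the 44, were picked after their values were seen and were not tested as a group. Cdo1, which turns cysteine into its sulfinic acid, fell from a mean of 17928 ± 380.3 (SD, n = 3) to 5382 ± 373 (log2 -1.73, limma adjusted p = 1.95e-06). Csad, which decarboxylates that product on the way to taurine, fell 2.06-fold, from 2072 to 2510 in wild type to 1079 to 1169 (adjusted p = 8.25e-05). The carrier gene Slc6a13 fell from 1383, 1267 and 784 to 164, 181 and 239. Slc6a6, the main taurine transporter, rose 2.21-fold, from 1367 to 1756 in wild type to 2999 to 3942 in Pparg ldi/+ (adjusted p = 0.000204). In each of the 4 genes the groups did not overlap, which held for 47.6% of all genes tested.

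Slc43a2, another carrier of branched-chain amino acids that was also picked after its values were seen, rose 1.82-fold (log2 0.87, adjusted p = 0.00155), while Slc43a1 of the same family fell. The groups did not overlap in either, as in 47.6% of all genes tested.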
